A study of Arabidopsis lyrata with 3 samples.

Results

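Listed windows of SEPALLATA3 (SEP3) signal in Arabidopsis thaliana were described at 4 flowering time genes, SOC1, SVP, FLC and FT. The members are the windows of the deposited A. thaliana SEP3 ChIP-seq list that overlap a gene, or the 3000 bp on either side of it, by at least 1 bp. They number 8 windows of the 14707 in that list and of the 172904 in the 3 lists of the series. SOC1 and SVP had 3 windows each, and FLC and FT had 1 each, so no gene was without one. ChIP-seq, chromatin immunoprecipitation followed by sequencing, records the DNA that is pulled down with a protein. The other lists of the series come from A. lyrata inflorescences and were not used for these genes. The A. thaliana list was made again by the authors from earlier SEP3 ChIP samples. The labels used here state neither the tissue, genotype and age behind it nor its control and how its samples were combined. It is 1 list with no replicates, so no error can be given for any window and no test between genes was possible.

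SEP3 is a MADS-domain transcription factor that works in complexes with other MADS-domain proteins to specify floral organs. These proteins bind short AT-rich DNA elements called CArG boxes. Flowering in Arabidopsis is timed by a network that ends in a few genes. FT encodes the mobile florigen protein, which is made in leaves and acts at the shoot apex. SOC1 is a MADS-domain activator that joins several flowering signals at the apex. FLC and SVP are MADS-domain repressors of flowering that act on FT and SOC1, and FLC is silenced by long cold. SVP and SOC1 also act in young floral meristems, where they restrain floral organ genes, SEP3 among them. The SOC1 and FLC genes are known to be read from the reverse strand and SVP and FT from the forward strand, and 5′ and 3′ sides are given on that basis.

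The strongest window at SOC1 and that at SVP were among the stronger ones of the list, and both genes also had weak windows. The single windows at FLC and FT were weak beside these. That at FLC was above the median score of the list, and that at FT was close to the lowest score. Each window carries a score, a length and a summit position, all the authors' own values. The score has an unstated formula and was used here to rank windows within this list, with rank 1 the highest. Scores in the list ran between 1.01 and 54.87 with a median of 1.42, and the 14707 windows took 153 distinct score values, so that many windows were tied. The highest score was 8.95 at SOC1, 8.57 at SVP, 1.61 at FLC and 1.05 at FT. SOC1 and SVP stood next to each other in this order. Their scores were 0.38 apart, with 1 other score value and 15 windows between them, and with no replicate it could not be tested whether they differ. The ranks of these strongest windows, at the best place of each tie, were 262 for SOC1, 285 for SVP, 5129 for FLC and 10432 for FT. Of the 8 windows, 3 were among the 2000 of highest score, a limit that 2000 of all 14707 windows pass. The lowest score of those 2000 was 3.12. The 3 at these genes were 2 windows at SOC1 and 1 at SVP, too few to read as a result about the genes. The list does not tell apart weak binding in many cells and strong binding in few.

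**Figure D1:**
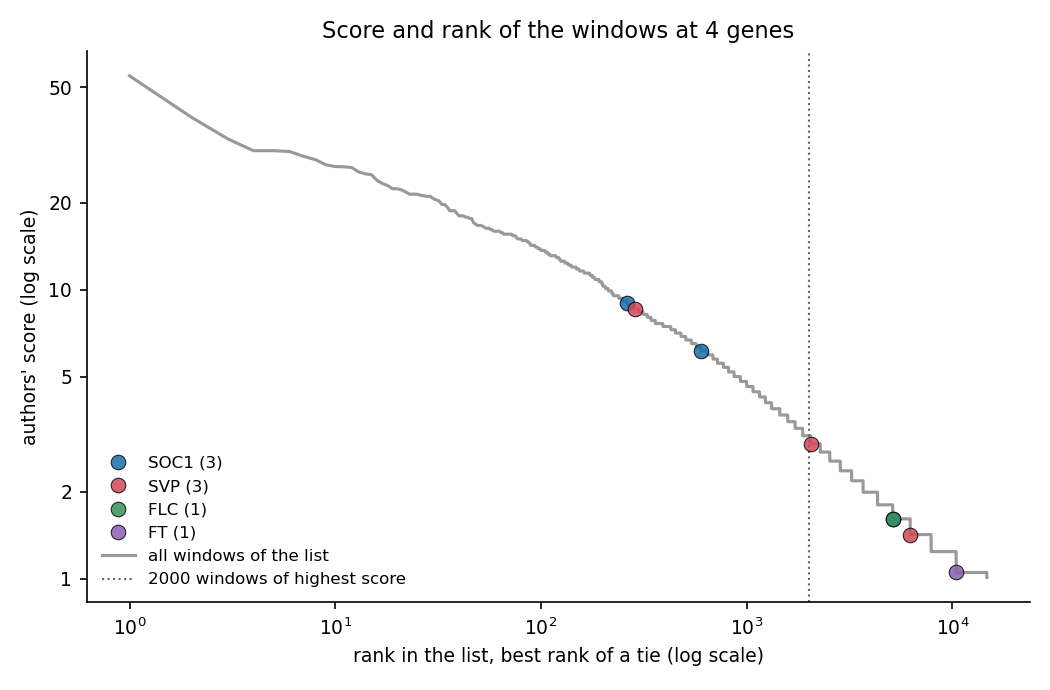
Score (log scale) against rank (log scale, best rank of a tie) for the 8 windows at SOC1, SVP, FLC and FT, drawn as coloured points, and for all 14707 windows, drawn as the grey line, with a dotted line at rank 2000. The strongest SOC1 and SVP windows lie side by side at ranks 262 and 285, and the point of the SOC1 window at 1.61 is hidden by the FLC point of the same score.

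SOC1 had strong windows beyond its 5′ end and a weak window beyond its 3′ end. The gene spans 3510 bp of chromosome 2 on TAIR10, between 18807538 and 18811047. Its strongest window lay between 18810864 and 18812057, with a score of 8.95, a length of 1194 bp and the summit at 18811764. The summit was 717 bp beyond the 5′ end, and 184 bp of the window reached into the gene. It was among 8 windows of equal score at ranks 262 to 269, and it was number 46 of the 2248 windows on the chromosome. It was long for its score, being the 37th longest of the list. Of the 100 windows nearest in rank, 4 were at least as long, with a median of 599.5 bp among the 100. The summit stood 900 bp above the window's lower end, nearer to the side away from the gene.

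The next SOC1 window lay further out on the same side, between 18812885 and 18813326. It scored 6.13 at ranks 600 to 640, was 442 bp long and had its summit at 18813089, which is 2042 bp beyond the 5′ end. It was short for its score, since 87 of the 100 windows nearest in rank were at least as long. The 2 strong SOC1 summits were 1325 bp apart, with 827 bp free of any window between them. A pair this close was uncommon among the 2000 strongest windows, and pairs with weaker windows were not counted. Of the 2000 strongest windows, 184 (9.20%) had another of the 2000 with its summit within the same distance. The remaining SOC1 window, between 18806619 and 18806906, was 288 bp long and scored 1.61, a score shared by 1102 windows at ranks 5129 to 6230. Its summit at 18806847 was 691 bp beyond the 3′ end.

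SVP had all 3 of its windows beyond its 5′ end. The gene spans 3312 bp of chromosome 2, between 9580417 and 9583728. The strongest window lay between 9579937 and 9580497, with a score of 8.57 at ranks 285 to 298, and it was number 51 on the chromosome. It was 561 bp long, close to the median of 593 bp of the 100 windows nearest in rank. Its summit at 9580212 lay 205 bp beyond the 5′ end, the shortest distance among the 8 windows, and 81 bp of the window reached into the gene. A weak window stood 143 bp away on the outer side, between 9579494 and 9579793, with a score of 1.42 at ranks 6238 to 7868 and a length of 300 bp. Its summit at 9579768 was 649 bp beyond the 5′ end and lay near the end of the window that faces the strong one. It was long for its score, since 1460 of the 1631 windows with that score were shorter (89.5%).

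The outermost SVP window lay between 9577443 and 9577845, 403 bp long, with its summit at 9577591, 2826 bp beyond the 5′ end. Its score of 2.93, at ranks 2044 to 2275, was just under the limit of the 2000 strongest windows. No window was listed in the 3000 bp beyond the 3′ end of SVP. From the strongest window to the next one on that side, 46549 bp were free of windows, while the median distance between adjacent windows of the list was 3799 bp. Stretches without a window that were at least as long as this one made up 1.69% of the 14702 in the list and held 17.3% of its window-free bases.

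**Figure D2:**
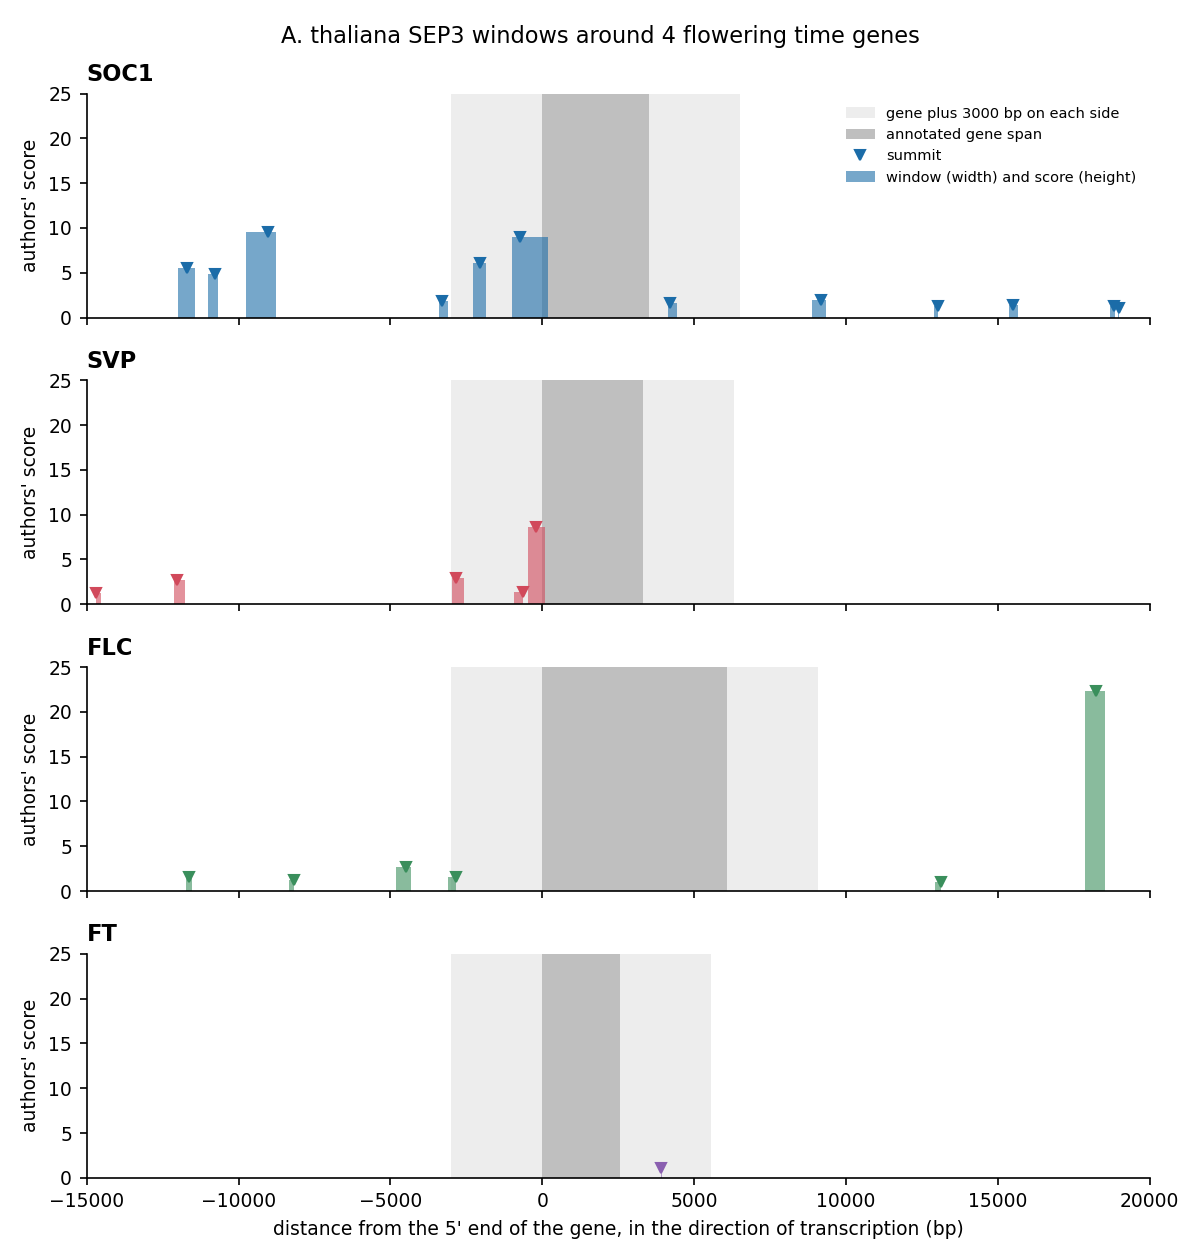
Windows around each gene, with distance from the 5′ end of the gene in bp along the direction of transcription on the x axis and the authors' score on the y axis. Bars show each window by its length and score, triangles its summit, dark grey the gene and light grey the 3000 bp on each side. The strongest window of SOC1 and that of SVP reach the 5′ end, the other strong SOC1 window has its summit 2042 bp beyond it, and no window overlaps the FLC or FT gene.

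FLC had a weak window far out on its 5′ side and none within the gene. The gene spans 6067 bp of chromosome 5, between 3173382 and 3179448, and is the longest of the 4. The window lay between 3182299 and 3182539, scored 1.61 at ranks 5129 to 6230 and was 241 bp long. Its summit at 3182299, the first base of the window, was 2851 bp beyond the 5′ end. The window crossed the edge of the 3000 bp flank, with 150 of its bases inside. Its score equals that of the SOC1 window on the 3′ side. In the list 5128 windows scored higher and 8477 scored lower. The whole FLC gene lay in a stretch of 15780 bp without a window. Stretches at least that long made up 13.0% of those in the list and held 52.7% of its window-free bases.

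FT had 1 window, close to the lowest score in the list. The gene spans 2563 bp of chromosome 1, between 24331373 and 24333935. The window lay between 24335274 and 24335309, was 36 bp long and had a score of 1.05, shared by 4259 windows at ranks 10432 to 14690. In the whole list 17 windows scored lower. Of those 4259 windows 883 (20.7%) were shorter, and their median length was 111 bp. The summit at 24335274, the first base of the window, lay 1339 bp beyond the 3′ end. No window was listed within the gene or in the 3000 bp beyond its 5′ end. The nearest window on the 5′ side, which also scored 1.05, had its summit 36132 bp beyond the gene, so that FT lay in a stretch of 39822 bp without a window. On the 3′ side the nearest other window, with a score of 1.61, had its summit 21989 bp beyond the gene. Stretches of at least 39822 bp made up 2.26% of those in the list and 20.4% of its window-free bases.

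The FLC and FT windows shared a feature seen among weak windows of the list, a summit at the first base of the window. This was so for 4255 of the 4259 windows that scored 1.05 (99.9%), for 212 of the 1102 that scored 1.61 (19.2%), for 6726 of all windows (45.7%) and for 0 of the 2000 strongest. In the other 6 windows at these genes the summit lay inside the window. For the FLC and FT windows the distance from summit to gene is therefore that of the window edge facing the gene.

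**Figure D3:**
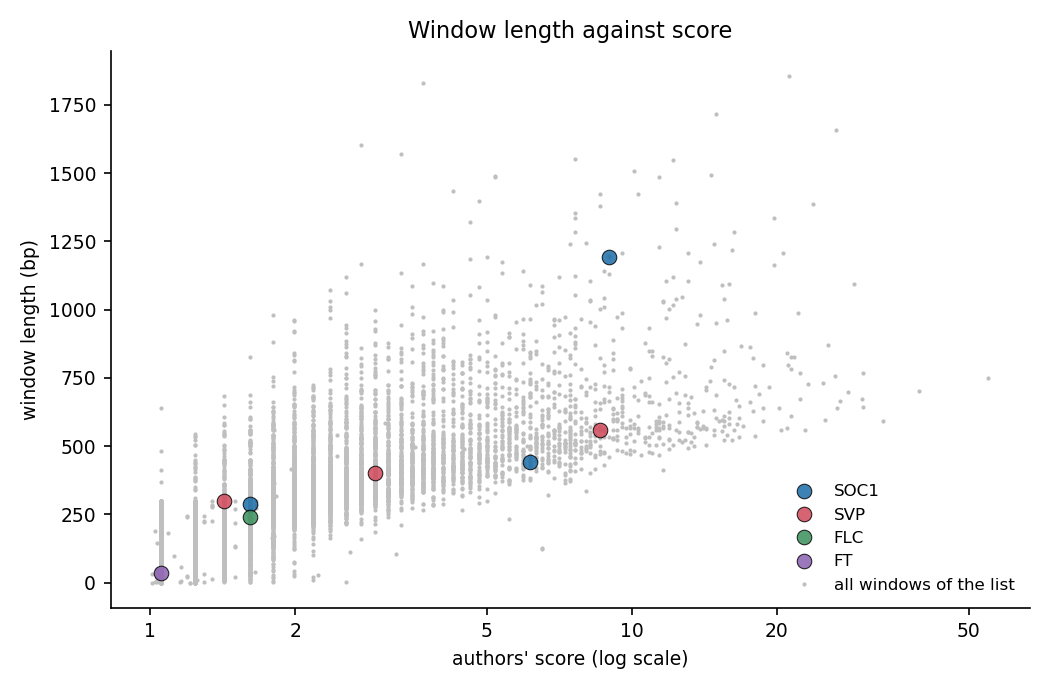
Window length in bp against score (log scale) for the 8 windows at SOC1, SVP, FLC and FT, as coloured points, and for all windows of the list, as grey points. The strongest SOC1 window, 1194 bp long, lies above most windows of like score, and the FT window, 36 bp long, lies at the lower left.

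The strong signal at SOC1 and SVP was placed beside the genes, on the 5′ side. Summits lay beyond the 5′ end for 6 of the 8 windows and beyond the 3′ end for 2, and 0 lay inside a gene. The genes made up 39.2% of the 39452 bp examined. How summits of the whole list lie relative to genes was not analysed here. Whether these counts differ from those of other genes is therefore unknown. Of the 6 windows on the 5′ side, all but the FLC window were at SOC1 or SVP. The strongest window of SOC1 and that of SVP ran into the first bases of the gene. Windows covered 1452 bp (48.4%) of the 3000 bp beyond the 5′ end of SOC1, 1183 bp (39.4%) of that of SVP, 150 bp (5.0%) of that of FLC and 0 bp of that of FT. Beyond the 3′ end they covered 288 bp (9.6%) at SOC1, 0 bp at SVP and FLC and 36 bp (1.2%) at FT. Inside the genes they covered 184 bp (5.24%) of SOC1, 81 bp (2.45%) of SVP and 0 bp of FLC and FT. The whole list covered 3.21% of the chromosomes between the first and last windows.

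**Figure D4:**
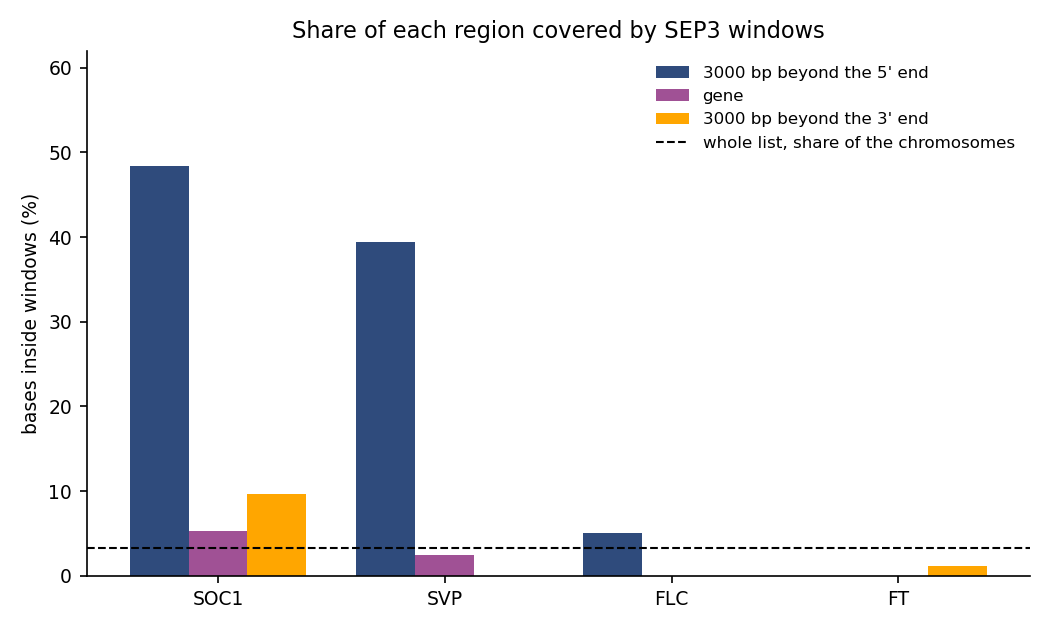
Share of bases inside windows, in percent, for the 3000 bp beyond the 5′ end, the gene and the 3000 bp beyond the 3′ end of each gene, as bars. The dashed line gives the 3.21% of the chromosomes covered by the whole list, and the bars for the 5′ side of SOC1 (48.4%) and SVP (39.4%) stand far above it.

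To read these values against the rest of the list, each chromosome was divided end to end into tiles of the median length of the 4 examined regions, 9411 bp. At least 1 window was present at 4 of 4 genes and in 60.0% of 12653 tiles, so that having a window at all does not set these genes apart. At least 3 windows were present at SOC1 and SVP and in 15.6% of tiles. A window among the 2000 strongest was present at SOC1 and SVP and in 14.5% of tiles.

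The height and extent of the signal at SOC1 and SVP were reached by few tiles. Among tiles as long as the SOC1 region, 2.15% held a window scoring at least 8.95, and 2.27% held at least 2 of the 2000 strongest windows, as SOC1 did. Among tiles as long as the SVP region, 2.35% held a window scoring at least 8.57. For FLC the like share, at a score of at least 1.61, was 40.9%, and for FT, at 1.05, it was 57.0%. As many bases inside windows as at SOC1, 1924 bp or 20.2% of its region, were found in 0.783% of tiles, and as many as at SVP, 1264 bp or 13.6%, in 3.98%. FLC and FT had 150 and 36 bp in windows, or 1.24% and 0.420% of their regions. Among tiles of 3000 bp, 30.1% held some window, 0.101% had as many bases in windows as the 5′ side of SOC1 and 0.345% as many as that of SVP. Shares of tiles by bases in windows were computed only for SOC1 and SVP, and for flanks only for their 5′ sides, where coverage was highest. They were not computed for FLC, for FT or for any 3′ flank. All these shares are descriptions, since the tiles were not matched for their position relative to genes. The 4 genes were also chosen for their known role.

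**Figure D5:**
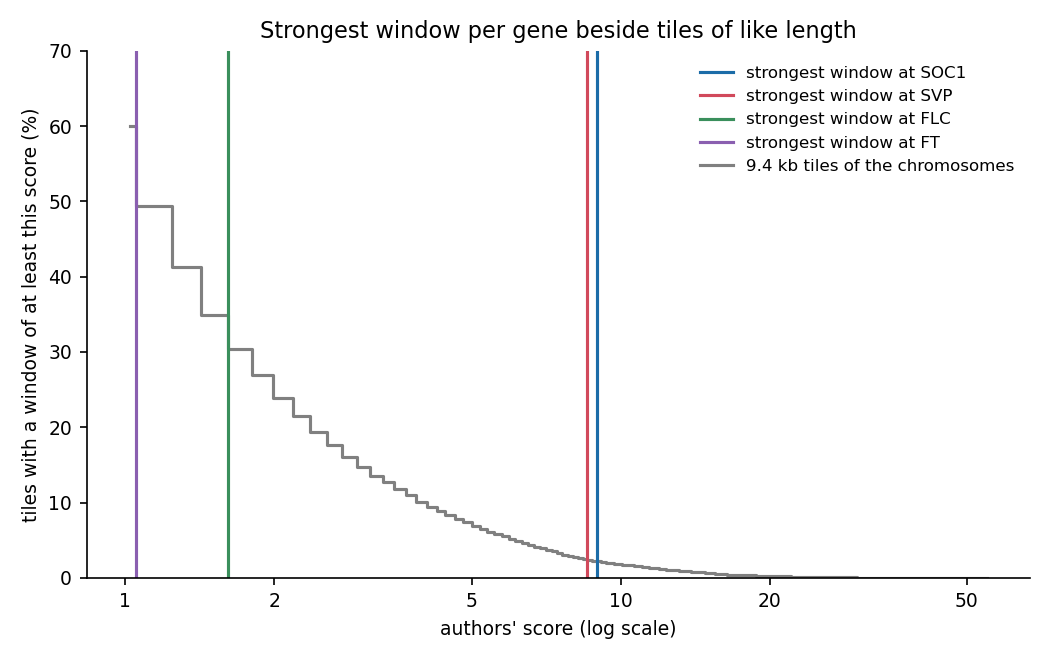
Share of tiles of 9411 bp, in percent, with a window of at least the score on the x axis (log scale), as the grey line, and the highest score at each gene as a vertical line. The lines of SVP (8.57) and SOC1 (8.95) cross the curve where few tiles remain, and those of FLC (1.61) and FT (1.05) where many do.

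The limit of 3000 bp decided several of the weaker windows. The SVP window with a score of 2.93 lay wholly inside, 26 bp from the limit, and the FLC window crossed it. A further SOC1 window on the 5′ side, between 18814148 and 18814438, began 101 bp outside, with a score of 1.80 and its summit 3309 bp from the gene. On the 3′ side of SOC1 the nearest window outside the limit scored 1.99, with its summit 5679 bp from the gene. The nearest window outside the limit on the 5′ side of FLC scored 2.74, more than the FLC window itself, with its summit 4503 bp from the gene. On the 3′ side of FLC the nearest one scored 1.05, with its summit 7050 bp away. For SVP the nearest outside window on the 5′ side scored 2.74, with its summit 12024 bp away, and that on the 3′ side scored 1.61, with its summit 43349 bp away.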

How the data were processed

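The A. thaliana windows are deposited as 1 list with start, end, summit, length and a score per window, per the file headers, re-analysed by the authors from earlier ChIP samples. The labels and headers used here state no formula for the score, no aligner, no window caller and no control. The submitters' processing notes name CASAVA for the A. lyrata samples. Read depth is unknown, and no interval was taken from it. The build TAIR10 is in the name of the deposited list.

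Windows were matched to the 4 gene regions and ranked by score with pandas 2.3.3 and numpy 2.4.6. The gene positions were given with the choice of genes, and the strands come from general knowledge of the annotation. Window counting and tiling were tested on simulated windows. Members and measures were chosen with earlier results of these data known. All windows of the 4 genes are named, and outside them the nearest window on each side. The positions of 26 other flowering time genes, and of the A. lyrata counterparts, were not analysed here, since the gene table used names 0 of them. Alternatives were flank width, overlap rule, stricter score limits, ties and tile placement.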

Additional observations from a re-analysis of the deposited data

How the results depend on the processing

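The 8 windows at the 4 genes became 2 with a flank of 0 bp, 4 with 1000 bp, 6 with 2000 bp, 10 with 5000 bp and 15 with 10000 bp. They stayed 8 when the summit, or at least 50% of the window, had to lie in the region. Only the FLC window crossed the edge of its region. Its summit is its edge facing the gene, so the summit rule could not change the count. Among the 5000 strongest of the 14707 windows 4 of the 8 were found, among the 2000 and the 1000 strongest 3, and among the 500 strongest 2. The highest score at SOC1 was 8.95 under each flank up to 5000 bp and 9.52 with 10000 bp, and at SVP it was 8.57 throughout. At FLC it was 2.74 with flanks of 5000 and 10000 bp, and no window was listed with 2000 bp or less. At FT it was 1.05 from 2000 bp on, with no window at 1000 bp or less. The share of tiles with any window, 60.0%, was 57.1% at the length of the shortest region, 67.5% at that of the longest and 75.0% in the denser 50% of the 1 Mb bins of each chromosome. The share with a window of the 2000 strongest, 14.5%, was 13.2, 17.4 and 21.0% in the same order. Tile starts moved by a part of a tile left both shares within their 95% Wilson intervals, which cover counting error only. No paired analysis was possible because the values come from 1 list with no replicates. Depth is unknown, so a gene region without a window may hold binding below the lowest listed score. The control is not stated either, and windows that scored 1.05, as at FT, were as short as 1 bp. Whether the weak windows at FLC and FT mark SEP3 binding was not tested.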

Other observations

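Stronger windows stood further from SOC1 and FLC than the 3000 bp examined, and they were picked out after their values were seen. Within 20000 bp of the genes the list held 14 windows at SOC1, 8 at SVP, 7 at FLC and 1 at FT. The strongest within that reach of FLC lay on its 3′ side between 3160910 and 3161583, with a score of 22.31 at rank 19, a length of 674 bp and its summit 12173 bp from the gene. The strongest within that reach of SOC1 lay on its 5′ side between 18819820 and 18820807, with a score of 9.52 at rank 225, a length of 988 bp and its summit 9035 bp from the gene. At SVP the strongest was still the window at its 5′ end, and at FT the single weak window. Which genes lie beside the 2 distant windows was not analysed here.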
